A study of Mus musculus with 15 samples.

Results

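Glycolysis and the response to low oxygen were followed through 40 genes chosen by symbol, out of 55471 genes in the count table. They were 16 glycolytic enzymes from hexokinase to lactate dehydrogenase, 3 transporters of glucose and lactate (Slc2a1, Slc2a3 and Slc16a3), and 21 other genes of the hypoxia response. The 21 were Hif1a, Epas1, Egln1 and Egln3 (the oxygen sensor and its factors), Pdk1, Pfkfb3 and Pfkfb4 (regulators of glycolytic flux), Car9 and Car12 (carbonic anhydrases), Bnip3, Bnip3l, Ddit4 and Ndrg1 (mitophagy and stress), Vegfa and Adm (vascular ligands), P4ha1, P4ha2, Ero1l and Kdm3a (protein processing and chromatin), and Ankrd37 and Mxi1. All 40 were found. Aldoa occurred on a second row of the table as well, with 212 counts in all libraries together, which was not used.

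Glycolysis breaks glucose down to pyruvate in the cytosol, and lactate dehydrogenase turns pyruvate into lactate when it is not burnt in mitochondria. Cells make more of the enzymes when oxygen is short, through hypoxia-inducible factors (HIF). The alpha subunits HIF-1 alpha (Hif1a) and HIF-2 alpha (Epas1) are marked by prolyl hydroxylases (the Egln genes) for destruction while oxygen is present, so their control lies largely at the protein level, which RNA counts do not show. Stable HIF pairs with ARNT and binds hypoxia response elements, whose core reads ACGTG or GCGTG. Bone marrow stroma and growing bone are known as tissues of low oxygen, and many tumour cells keep glycolysis high whatever the oxygen.

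The libraries were made from poly(A) RNA of mouse cells of the labelled type MSCLCs, an abbreviation the labels leave unexplained; the series title speaks of bone mesenchymal stem cells, YAP1, the Ewing sarcoma fusion EWS::FLI1 and IGF-1. Experiment 1 compared 4 libraries of the genotype EFPrx1MSCLC with 3 of the genotype MSC. The title numbers were 219, 221, 225 and 229 for EFPrx1MSCLC, and 202, 234 and 237 for MSC. The MSC libraries are wild type according to the design text, though only the titles of 234 and 237 hold WT. Experiment 2 compared 4 libraries of the genotype hr, 2 of ha and 2 of EF, which the design text calls hr-EFPrx1, ha-EFPrx1 and EFPrx1, so all 3 groups share the EFPrx1 background. Every title of experiment 2 has the number 221, as has 1 EFPrx1MSCLC library; what EF, ha and hr stand for, which cells or promoter carry an allele, and any treatment or age are not given in the labels. The hr titles form 2 pairs (uns-1 and uns-2, here hr 1 and hr 2, with libraries 1-1, 1-2, 2-1 and 2-2). The hr and ha titles also hold the word Combi, followed by uns in hr and by T in ha, which the EF titles lack and the labels do not explain.

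The libraries held 14906180 to 26833876 counts in experiment 1 and 11195371 to 16378368 in experiment 2. Whether the libraries of a group are separate cultures or animals is not stated in the labels. The p-values below therefore speak only of how far these libraries scatter, and that scatter may be technical. Over genes, the 2 EF libraries had a median chi-square 1.31 times that of counting noise alone, the libraries within hr 1 and within hr 2 had 1.29 and 1.30 times, against 14.7 to 15.8 between hr 1 and hr 2, 18.8 for the ha pair and 7.16 to 97.8 in experiment 1. The close pairs were kept as separate libraries, and the counts of members called in experiment 2 are also given with every close pair summed to 1 sample. Mesenchymal markers were present in all groups (Prrx1 lay between 139 and 796 CPM). The 12 together took 2993 to 8973 CPM of the library total in EFPrx1MSCLC and 11218 to 16960 CPM in MSC. By edgeR 1 of the 12 rose there, 2 fell and 9 did not pass. The 5 endothelial markers took 2.23 to 126 CPM in EFPrx1MSCLC, 5.64 to 12.2 CPM in MSC and 7.33 to 19.4 CPM in experiment 2. Only Tek among them was called by edgeR, higher in ha against EF and lower in hr against ha. The 5 epithelial markers summed to 0.131 to 7.67 CPM of the library total in EFPrx1MSCLC and 16.4 to 34.9 CPM in MSC, and to 31.7 to 39.0 CPM in hr, 0.611 to 0.979 CPM in ha and 12.9 to 14.6 CPM in EF. Of these, Epcam had 2 counts in EFPrx1MSCLC 219 and 0 in every other library, while Krt19 led the sum in hr and EF. By edgeR, Cdh1 fell in EFPrx1MSCLC against MSC, Krt19 rose in hr against EF, and Krt19 and Krt8 fell in ha against EF and rose in hr against ha. The part of these markers in the results was not tested. Blood cell markers separated the groups of experiment 1 and are given there.

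Levels are CPM, the usual depth-scaled counts, after TMM scaling within an experiment, and a fold change is edgeR's log2 fold change ± standard error. A gene rose or fell where edgeR's quasi-likelihood test gave an adjusted p under 0.05 over all genes tested in the comparison. All 40 members had enough counts to be tested in experiment 1. In experiment 2, 36 were tested; Slc2a3, Slc16a3, Car9 and Car12 were below the filter in all 3 groups.

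The promoters of 4 members called in at least 2 comparisons are shown so that the HIF core can be seen in place. RefSeq windows of GRCm38.p6, from 250 bases before to 50 after a gene's start, were found for 35 of the 40 members. ACGTG or GCGTG occurred on either strand in 40 of 53 member windows (75.5%) and in 43.8% of all 32851 windows; counted by gene, in 31 of 35 members (88.6%) and in 46.7% of 27025 genes. A CACGTG matches ACGTG on both strands. The letters were found in no window of Car12, Eno2, Gpi1 or Tpi1, which says only that these windows lack them. A match is a description of the sequence and does not show binding. The windows below belong to the 4 members with the lowest p-values among those called in at least 2 comparisons and holding a match. That each of the 4 holds the core was therefore fixed by the choice. The windows are written 5′ to 3′ on the gene's strand with the core, on either strand, in capitals. P4ha2 encodes a collagen prolyl hydroxylase subunit, Pfkp the platelet-type phosphofructokinase, Pgk1 phosphoglycerate kinase and Pgam1 phosphoglycerate mutase.
P4ha2 (chr11:54100674-54100973, plus strand, 4 matches): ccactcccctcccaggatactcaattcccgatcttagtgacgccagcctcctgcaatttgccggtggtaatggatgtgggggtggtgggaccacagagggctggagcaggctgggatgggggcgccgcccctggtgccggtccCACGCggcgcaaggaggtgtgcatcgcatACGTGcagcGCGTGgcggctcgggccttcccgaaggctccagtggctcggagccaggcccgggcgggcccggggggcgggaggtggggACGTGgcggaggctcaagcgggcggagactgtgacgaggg
Pfkp (chr13:6648722-6649021, minus strand, 4 matches): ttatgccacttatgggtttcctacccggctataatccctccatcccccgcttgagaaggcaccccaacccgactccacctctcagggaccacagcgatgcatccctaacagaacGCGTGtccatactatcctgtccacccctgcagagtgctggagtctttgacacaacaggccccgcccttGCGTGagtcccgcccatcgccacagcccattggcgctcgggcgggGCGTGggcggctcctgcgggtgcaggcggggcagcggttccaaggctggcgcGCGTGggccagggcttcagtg
Pgk1 (chrX:106186850-106187149, plus strand, 2 matches): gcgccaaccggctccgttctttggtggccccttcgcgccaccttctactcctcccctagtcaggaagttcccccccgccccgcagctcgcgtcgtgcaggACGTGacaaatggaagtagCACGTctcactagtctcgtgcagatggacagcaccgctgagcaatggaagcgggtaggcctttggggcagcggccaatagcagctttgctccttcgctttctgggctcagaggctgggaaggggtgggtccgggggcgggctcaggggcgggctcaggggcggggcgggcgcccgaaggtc
Pgam1 (chr19:41911621-41911920, plus strand, 3 matches): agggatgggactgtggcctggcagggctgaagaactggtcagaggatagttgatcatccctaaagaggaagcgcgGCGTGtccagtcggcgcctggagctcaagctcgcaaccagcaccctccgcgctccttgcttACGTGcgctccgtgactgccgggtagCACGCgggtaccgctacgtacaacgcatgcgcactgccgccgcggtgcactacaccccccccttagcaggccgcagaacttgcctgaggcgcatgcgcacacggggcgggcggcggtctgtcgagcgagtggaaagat

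**Figure D1:**
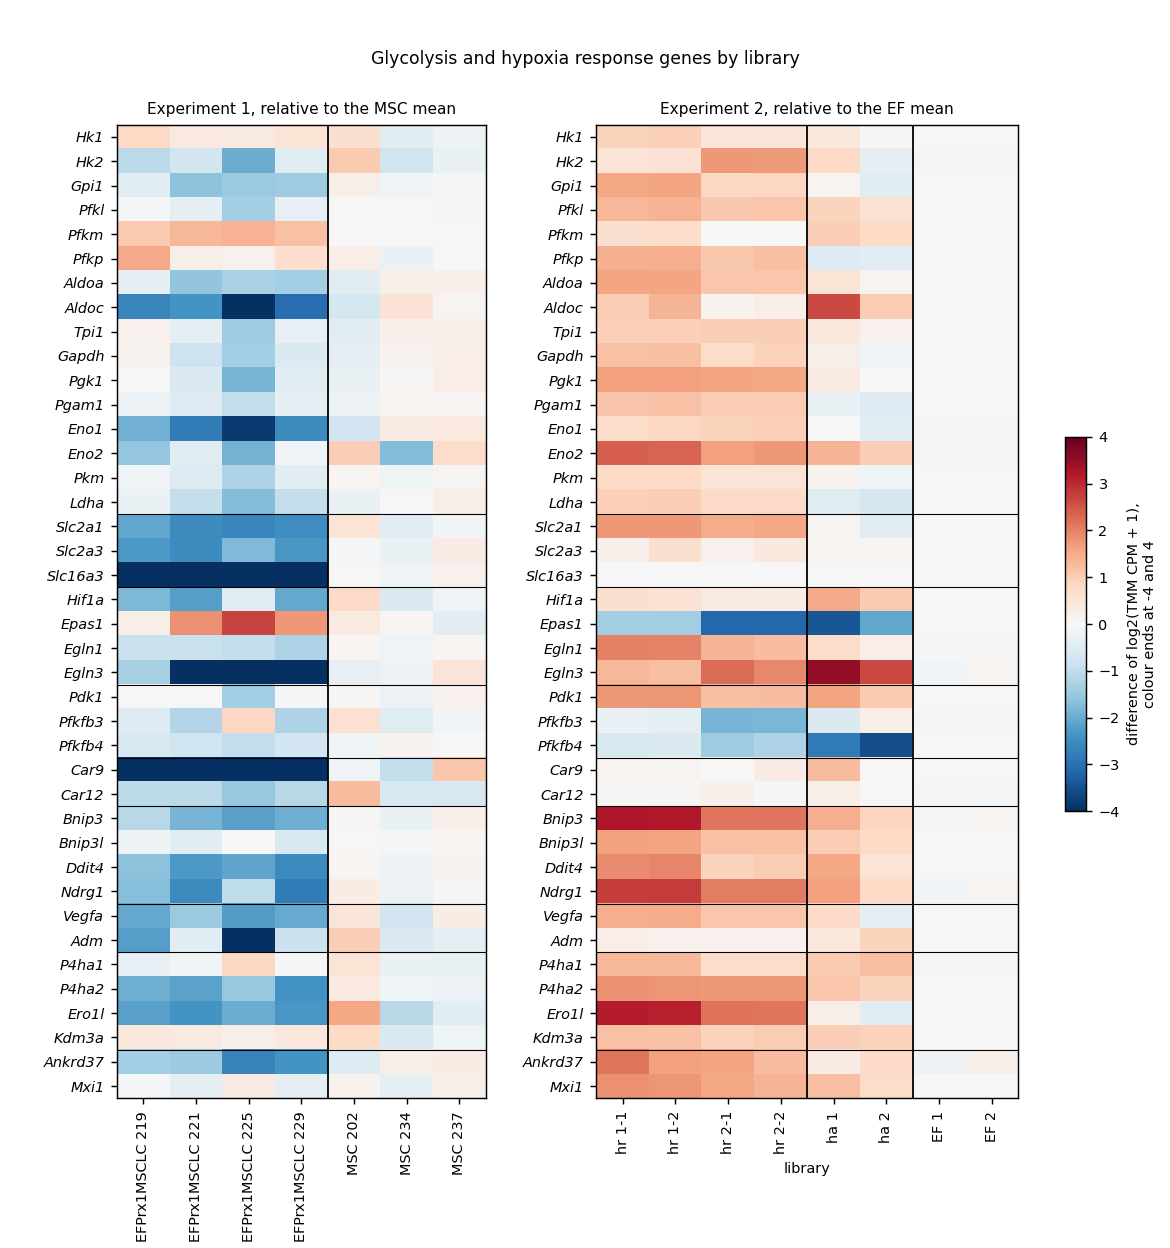
Level of each of the 40 members (rows, ordered by role) in each library (columns), as the difference of log2(CPM + 1) from the MSC mean in experiment 1 (left) and from the EF mean in experiment 2 (right); red is higher and blue lower, and colours end at -4 and 4. EFPrx1MSCLC columns are mostly blue, with Pfkm and Epas1 among the red rows, and the hr columns are mostly red, with Epas1, Pfkfb3 and Pfkfb4 blue.

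Experiment 1 asked what differed between EFPrx1MSCLC and wild-type MSC cells. Lower levels in EFPrx1MSCLC were found for 10 of the 21 hypoxia response genes and for the 3 transporters, while the other 11 of the 21 and 13 of the 16 enzymes did not pass. Of the 40 members 1 rose and 15 fell, where 7.7% of the 14596 genes tested were called higher and 12.1% lower. The 19 glycolytic genes had 1 higher and 5 lower, with a median log2 fold change of -0.90, and the other 21 members 0 higher and 10 lower, with a median of -1.56; the median of all genes tested was 0.04. No member of the 21 others was higher by edgeR, where 1 had an unadjusted p under 0.05 in that direction, nor by limma-voom, and DESeq2 called 1, Epas1.

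All 3 transporters fell, though Slc16a3 and Slc2a3 each reached 10 counts in only 1 EFPrx1MSCLC library. They passed the filter through the MSC libraries, and so had to differ to be tested at all. Slc2a1, the widely expressed glucose transporter GLUT1 (ENSMUSG00000028645, chromosome 4, 119108711 to 119137983), had 98.3, 73.2, 68.0 and 75.1 CPM in EFPrx1MSCLC libraries 219, 221, 225 and 229, against 610.0, 311 and 393 CPM in MSC libraries 202, 234 and 237. Every EFPrx1MSCLC library lay below every MSC library, and MSC 202 was the highest. The difference was -2.48 ± 0.31 (edgeR adjusted p = 0.00316). Slc16a3, the lactate exporter MCT4 (ENSMUSG00000025161, chromosome 11, 120948480 to 120960868), had 4.05, 0.144, 0.321 and 0.313 CPM in the same EFPrx1MSCLC libraries, against 269, 239 and 308 CPM in the MSC libraries. Its counts summed to 96 in EFPrx1MSCLC and 13387 in MSC, and 79 of the 96 were in library 219. It fell by 7.82 ± 1.21 (edgeR adjusted p = 0.00608), and its log2 fold change was -10.08 without EFPrx1MSCLC 219 (edgeR adjusted p = 0.000307). Slc2a3, the high-affinity transporter GLUT3, had 34 counts in EFPrx1MSCLC and 279 in MSC, and was low throughout at 0.359, 0.144, 0.962 and 0.313 CPM in EFPrx1MSCLC and 5.31, 4.47 and 7.36 CPM in MSC, and fell by 3.69 ± 0.68 (edgeR adjusted p = 0.0105), with a log2 fold change of -4.43 without EFPrx1MSCLC 225 (edgeR adjusted p = 0.00481).

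Among the 16 enzymes only Pfkm rose, and Eno1 and Aldoc fell by edgeR. Pfkm, the muscle-type phosphofructokinase (ENSMUSG00000033065, chromosome 15, 98092589 to 98132451), had 79.8, 98.6, 102 and 87.1 CPM in the EFPrx1MSCLC libraries, against 38.3, 38.7 and 38.3 CPM in the MSC libraries. The MSC values were nearly equal and all EFPrx1MSCLC values were above them, a difference of 1.26 ± 0.19 (edgeR adjusted p = 0.00587). Eno1, the ubiquitous enolase, had 607, 332, 162 and 392 CPM in EFPrx1MSCLC and 1368, 2963 and 3029 CPM in MSC. The groups did not overlap, with EFPrx1MSCLC 225 the lowest, and Eno1 fell by 2.72 ± 0.51 (edgeR adjusted p = 0.0118). Aldoc, the brain-type aldolase, fell by 3.39 ± 0.64 (edgeR adjusted p = 0.0116), with 2.88 ± 1.71 CPM in EFPrx1MSCLC (SD, n = 4) and 30.4 ± 13.2 CPM in MSC (n = 3).

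The remaining 13 enzymes did not pass. Their fold changes lay between -1.26 (Eno2) and 0.75 (Pfkp), and 11 of the 13 were below 0. Ldha, the main lactate-forming subunit of lactate dehydrogenase, had 1367, 862, 498 and 863 CPM in EFPrx1MSCLC and 1386, 1693 and 1950.1 CPM in MSC. The groups did not overlap, though EFPrx1MSCLC 219 came close to MSC 202 (-0.90 ± 0.38, edgeR adjusted p = 0.133). Pgk1 had 1458, 1001, 406 and 1104 CPM in EFPrx1MSCLC and 1201, 1538 and 1764 CPM in MSC, overlapping groups with a difference of -0.60 ± 0.44 (edgeR adjusted p = 0.360). Hk2, the hexokinase that HIF is known to induce, had 62.4, 79.6, 33.0 and 95.5 CPM in EFPrx1MSCLC and 278, 77.3 and 112 CPM in MSC, which overlap. Its difference was -1.20 ± 0.51 (edgeR adjusted p = 0.134) and -0.48 without MSC 202. Calls here also turned on single libraries for Aldoa and Gpi1, which fell without EFPrx1MSCLC 219 (edgeR adjusted p = 0.0337 and 0.0132), and Hk1, which rose without MSC 202 (edgeR adjusted p = 0.0264); Aldoa fell without MSC 202 too (edgeR adjusted p = 0.0405).

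Of the oxygen sensor and its factors, only Egln1 passed. Egln1, the main HIF prolyl hydroxylase PHD2, had 89.5, 89.2, 84.0 and 70.7 CPM in EFPrx1MSCLC and 176, 150.4 and 175 CPM in MSC, and fell by 1.00 ± 0.20 (edgeR adjusted p = 0.0144). Hif1a (ENSMUSG00000021109, chromosome 12, 73901375 to 73947530) had 183, 137, 461 and 155 CPM in EFPrx1MSCLC and 1086, 431 and 563 CPM in MSC. EFPrx1MSCLC 225 stood above MSC 234 and so the groups overlapped; the difference of -1.56 ± 0.53 did not pass (edgeR adjusted p = 0.0775), and passed without that library (-2.18, edgeR adjusted p = 0.0134). Epas1 (ENSMUSG00000024140, chromosome 17, 86753700 to 86833410) went the other way, with 25.1, 78.9, 146 and 73.7 CPM in EFPrx1MSCLC and 27.9, 22.8 and 15.4 CPM in MSC. Library 219 lay among the MSC values; the difference of 1.88 ± 0.56 missed the threshold (edgeR adjusted p = 0.0526) and passed without 219 (2.11, edgeR adjusted p = 0.013). Egln3, the hydroxylase PHD3 and a known HIF target, had 24.2, 0, 2.12 and 0.452 CPM in EFPrx1MSCLC and 50.3, 54.7 and 90.3 CPM in MSC. No EFPrx1MSCLC library reached the MSC values, yet the spread left the difference of -3.28 ± 1.56 short of the threshold (edgeR adjusted p = 0.171); without 219 it was -6.39 (edgeR adjusted p = 0.0168).

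Other HIF targets supplied most of the lower calls. Car9, a cell surface carbonic anhydrase widely used as a marker of hypoxia (ENSMUSG00000028463, chromosome 4, 43506966 to 43513729), had 3, 3, 3 and 0 counts in the EFPrx1MSCLC libraries, against 1028, 350 and 1582 counts in the MSC libraries. The ratio of EFPrx1MSCLC to MSC was 0.00212 on summed counts, with a 95% exact binomial interval of 0.000966 to 0.00402 that covers counting error only. It fell in edgeR too (edgeR adjusted p = 0.00169). Because it passed the filter through the MSC libraries alone, it had to differ to be tested at all.

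Vegfa, the vascular growth factor, had 99.7, 146, 87.2 and 101 CPM in EFPrx1MSCLC and 574, 241 and 507 CPM in MSC, and fell by 2.02 ± 0.36 (edgeR adjusted p = 0.00957). Bnip3, a mitophagy receptor, had 151, 88.0, 70.9 and 83.4 CPM in EFPrx1MSCLC and 337, 272 and 371 CPM in MSC, and fell by 1.73 ± 0.32 (edgeR adjusted p = 0.0105). Ddit4, the mTORC1 inhibitor REDD1, had 56.2, 35.5, 40.3 and 29.7 CPM in EFPrx1MSCLC and 187, 153 and 193 CPM in MSC, and fell by 2.14 ± 0.27 (edgeR adjusted p = 0.00330). In these genes every EFPrx1MSCLC library lay below every MSC library. P4ha2 had 154, 136, 209 and 110.1 CPM in EFPrx1MSCLC and 793, 530.4 and 511 CPM in MSC, and fell by 2.01 ± 0.32 (edgeR adjusted p = 0.00658), while its relative P4ha1 did not pass (0.09 ± 0.39). Ndrg1, a stress-induced gene, had 33.9, 18.8, 56.0 and 15.6 CPM in EFPrx1MSCLC and 139, 96.7 and 108 CPM in MSC, and fell by 1.89 ± 0.45 (edgeR adjusted p = 0.0269). Again the groups were apart, with EFPrx1MSCLC 225 the highest of its group.

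Ero1l, an oxidase of protein folding in the endoplasmic reticulum, fell by 2.68 ± 0.62 (edgeR adjusted p = 0.0236). It had 176, 153, 201 and 160.3 CPM in EFPrx1MSCLC and 2350.1, 367 and 594 CPM in MSC, where 202 stood far above 234 and 237, and without 202 the log2 fold change was -1.47 (edgeR adjusted p = 0.00932). Ankrd37, a small ankyrin repeat gene, and Pfkfb4, a regulator of fructose 2,6-bisphosphate, fell by 2.18 ± 0.52 and 0.87 ± 0.25 (edgeR adjusted p = 0.0264 and 0.0495). Of the 16 calls, 11 were kept in each of the 7 omissions of 1 library. Egln1 was lost without MSC 237, Ero1l without EFPrx1MSCLC 221 or 229, Ndrg1 without EFPrx1MSCLC 221, MSC 234 or MSC 237, Ankrd37 without EFPrx1MSCLC 229, MSC 234 or MSC 237, and Pfkfb4 in 5 omissions, with adjusted p up to 0.0668, 0.0609, 0.0784, 0.106 and 0.181 in edgeR. Pfkfb4 was lost without a filter as well. Pdk1, Pfkfb3, Car12, Bnip3l, Adm, P4ha1, Kdm3a and Mxi1 did not pass; Kdm3a rose without MSC 202 (edgeR adjusted p = 0.0288), so that 3 members were then higher.

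Blood cell markers differed between the same groups. The 16 markers summed to 510, 54.7, 56.2 and 71.9 CPM of the library total in EFPrx1MSCLC 219, 221, 225 and 229, against 11115, 30803 and 20213 CPM in MSC 202, 234 and 237, and 14 of the 16 fell. MSC 202 had the lowest marker sum of the MSC group. It was the highest of that group for Slc2a1, Vegfa, P4ha2, Ero1l and Hif1a. For Eno1, Ldha, Pgk1, Egln3 and Aldoc it was the lowest, so members went both ways. The part of blood cells in these differences was not tested, and in RNA from a mixed population fewer cells of a type and less RNA per cell cannot be told apart. The 6 proliferation markers summed to 1298, 1143, 124 and 1020 CPM in EFPrx1MSCLC and 163, 441 and 324 CPM in MSC, with EFPrx1MSCLC 225, the lowest library for Pgk1, Ldha and Pdk1, below all others. Mitochondrial transcripts made up 4.06% to 8.43% of EFPrx1MSCLC counts and 1.63% to 3.52% of MSC counts, and their part was not tested either.

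**Figure D2:**
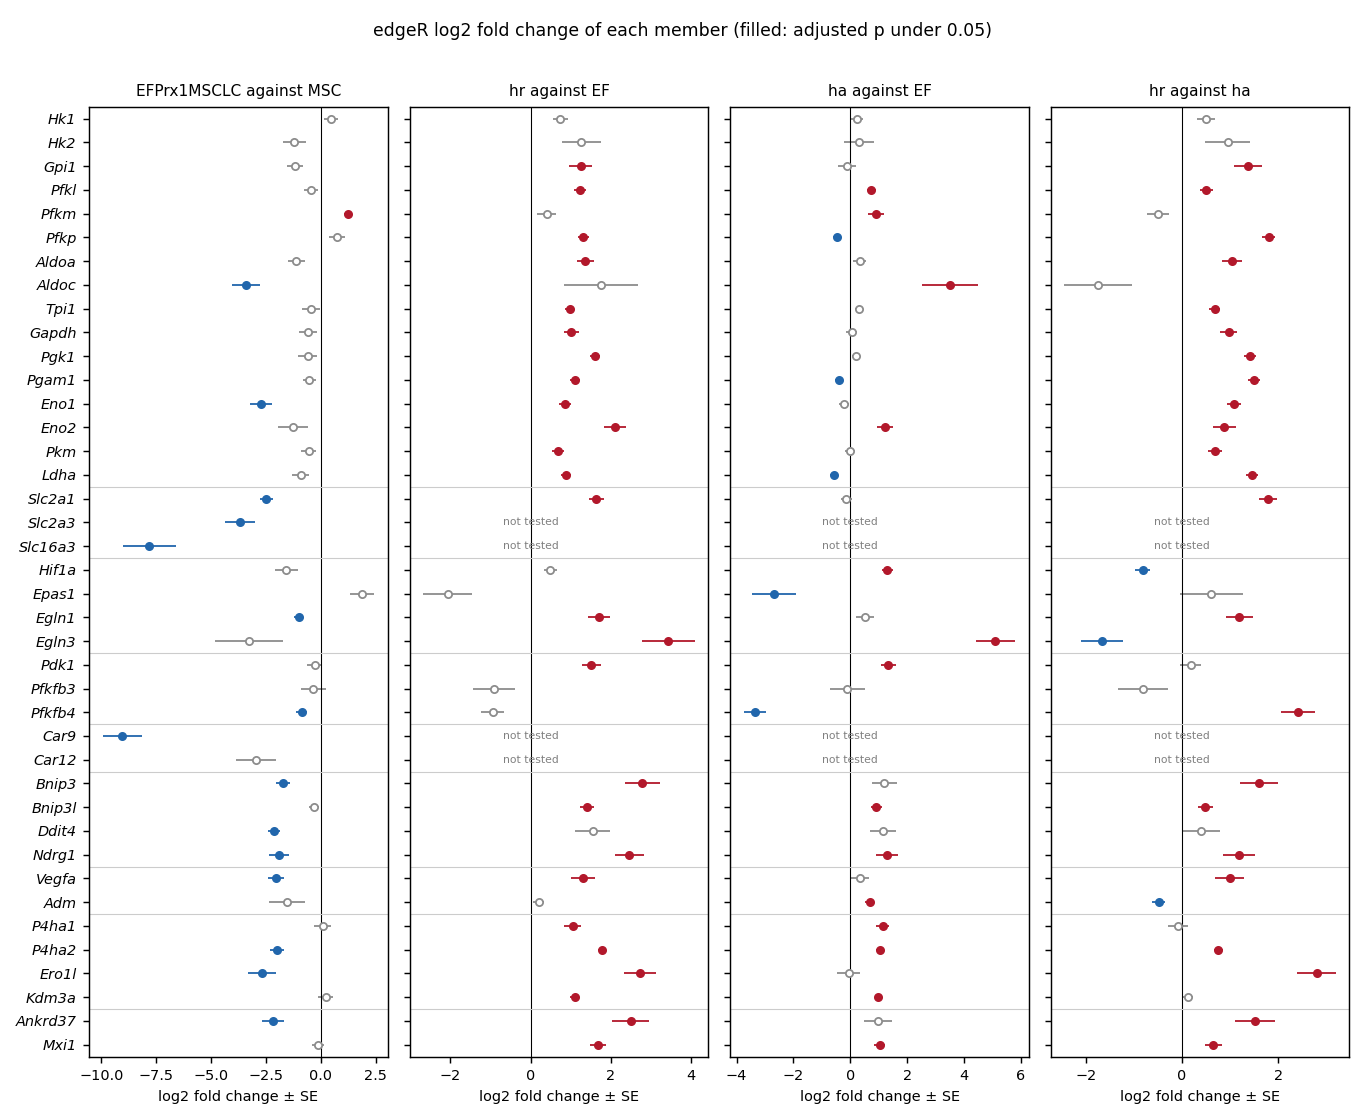
Fold change of each member (rows) in the 4 comparisons (panels), as edgeR's log2 fold change with its standard error; filled points have an adjusted p under 0.05, red higher and blue lower in the first-named group. Filled points lie left of 0 for 15 members of EFPrx1MSCLC against MSC and right of 0 for 26 members of hr against EF.

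In experiment 2, hr and EF cells of the EFPrx1 background were compared first. Most genes of the glycolytic chain were higher in hr, and so were most other members. Of the 36 members tested 26 rose and 0 fell, where 3.88% of the 13998 genes tested were called higher and 3.07% lower. Among the 17 glycolytic genes tested 13 rose, with a median log2 fold change of 1.24, and among the 19 other members 13 rose, with a median of 1.52, beside 0.01 for all genes tested. Of members below 0, 2 had an unadjusted p under 0.05; DESeq2 called 2 lower and limma-voom 1. The calls came with the close libraries counted separately, and none was kept with 1 EF library left out or with the close pairs summed. Without EF 1 or without EF 2, which leaves 1 EF library, edgeR called no gene at all in this comparison. The median log2 fold change of the members tested was 1.31 without EF 1 and 1.30 without EF 2. With each close pair summed to 1 sample, which leaves 1 EF sample, edgeR again called no gene. The median log2 fold change of the members tested was then 1.31. DESeq2 and limma-voom were not run on the summed pairs.

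Slc2a1 had 294, 294, 245 and 255 CPM in hr libraries 1-1, 1-2, 2-1 and 2-2, against 87.6 and 87.0 CPM in EF libraries 1 and 2. Both hr pairs stood far above EF and close to each other, a difference of 1.64 ± 0.18 (edgeR adjusted p = 0.00772). Slc16a3 had no count in any of the 8 libraries, where 3 counts, the limit a count of 0 allows, would be 0.183 to 0.268 CPM.

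Pgk1, which makes the first ATP of the pathway (ENSMUSG00000062070, chromosome X, 106187100 to 106203699), had 2466, 2443, 2375 and 2339 CPM in hr, against 806 and 777 CPM in EF. Its 2406 ± 59.2 CPM (SD, n = 4) in hr and 792 ± 20.0 CPM (n = 2) in EF gave 1.60 ± 0.13 (edgeR adjusted p = 0.00510). Pfkp had 130.1, 134, 104 and 113 CPM in hr and 48.5 and 48.1 CPM in EF, and rose by 1.31 ± 0.13 (edgeR adjusted p = 0.00594). Pgam1 had 1527, 1552, 1403 and 1401 CPM in hr and 682 and 693 CPM in EF, and rose by 1.10 ± 0.12 (edgeR adjusted p = 0.00772). The groups were apart in each of these genes, and Pgk1 and Pgam1 differed little between the hr pairs. Tpi1, triosephosphate isomerase, had 1108, 1112, 1129 and 1123 CPM in hr and 572 and 565 CPM in EF, the narrowest spread of these enzymes within hr (0.98 ± 0.11, edgeR adjusted p = 0.00772). Pfkl, the liver-type phosphofructokinase, had 573, 590.0, 483 and 489.7 CPM in hr and 224 and 229 CPM in EF (1.24 ± 0.15, edgeR adjusted p = 0.00772).

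Ldha (ENSMUSG00000063229, chromosome 7, 46841475 to 46855627) had 2019, 2045, 1780.3 and 1775 CPM in hr and 1037 and 1042 CPM in EF, and rose by 0.87 ± 0.12 (edgeR adjusted p = 0.0134). Eno1 had 862, 915, 977 and 994 CPM in hr and 503 and 530.3 CPM in EF, and rose by 0.86 ± 0.15 (edgeR adjusted p = 0.0216). Both pairs of hr were above EF in these 2 genes, with Ldha higher in hr 1 and Eno1 higher in hr 2. Eno2, the neuronal enolase, rose by 2.11 ± 0.27, with 90.4 ± 23.8 CPM in hr and 20.9 ± 0.877 CPM in EF (edgeR adjusted p = 0.00949). Gpi1, Aldoa, Gapdh and Pkm, the other enzymes called, rose by 1.25, 1.36, 1.02 and 0.67 (edgeR adjusted p = 0.0468, 0.0158, 0.0224 and 0.0423). Hk1, Pfkm, Aldoc and Hk2 did not pass. Hk2 had 76.4, 77.4, 175 and 172 CPM in hr and 53.4 and 50.6 CPM in EF; hr 2 stood well above hr 1, and the difference was 1.27 ± 0.48 (edgeR adjusted p = 0.150).

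Of the oxygen sensor genes, Egln1 and Egln3 rose and the HIF alpha genes did not pass. Egln1 had 329, 319.6, 205 and 189.9 CPM in hr and 76.8 and 82.9 CPM in EF, and rose by 1.71 ± 0.28 (edgeR adjusted p = 0.0188). Egln3 had 26, 23, 70 and 43 counts in hr and 2 and 5 in EF, and rose (edgeR adjusted p = 0.0297). On summed counts the ratio of hr to EF was 11.3, with a 95% exact binomial interval of 5.34 to 28.4; EF lay under 10 counts in each library, so Egln3 was tested because of the other groups. Hif1a had 249, 239, 205 and 197 CPM in hr and 159 and 158 CPM in EF, apart but not called (0.49 ± 0.16, edgeR adjusted p = 0.108). Epas1 had 27.8, 28.3, 7.71 and 7.64 CPM in hr and 76.1 and 74.0 CPM in EF. All hr libraries were below EF, hr 2 most, and the difference of -2.07 ± 0.60 did not pass in edgeR (adjusted p = 0.0802), while DESeq2 and limma-voom called it lower.

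Of the 4 mitophagy and stress genes, Bnip3, Bnip3l and Ndrg1 rose and Ddit4 did not pass. Bnip3 (ENSMUSG00000078566, chromosome 7, 138890836 to 138909519) had 589.9, 578, 280.3 and 276 CPM in hr, against 58.7 and 66.0 CPM in EF, and rose by 2.79 ± 0.43 (edgeR adjusted p = 0.0158). Its relative Bnip3l had 331, 323, 245 and 244 CPM in hr and 109 and 107 CPM in EF, and rose by 1.40 ± 0.17 (edgeR adjusted p = 0.00920). Ndrg1 (ENSMUSG00000005125, chromosome 15, 66929318 to 66969640) had 665, 676, 397 and 398 CPM in hr and 88.4 and 105 CPM in EF, and rose by 2.47 ± 0.36 (edgeR adjusted p = 0.0148). In all 3 genes hr 1 was higher than hr 2, and hr 2 higher than EF. Ddit4 followed the same order, with 146, 153, 71.1 and 77.6 CPM in hr and 37.5 and 39.0 CPM in EF, but did not pass (1.54 ± 0.43, edgeR adjusted p = 0.0698).

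P4ha2 gave the lowest p-value of the members. It had 227, 215, 209.7 and 209.6 CPM in hr and 61.9 and 63.3 CPM in EF, with the hr libraries close to each other, and rose by 1.78 ± 0.11 (edgeR adjusted p = 0.00201). Ero1l (ENSMUSG00000021831, chromosome 14, 45283087 to 45318771) had 1130.2, 1108, 574 and 564 CPM in hr and 128 and 125 CPM in EF, and rose by 2.74 ± 0.40 (edgeR adjusted p = 0.0146). P4ha1 and the histone demethylase gene Kdm3a rose by 1.05 ± 0.22 and 1.10 ± 0.11 (edgeR adjusted p = 0.0350 and 0.00594). Mxi1, a MYC antagonist, rose by 1.68 ± 0.19 and Ankrd37 by 2.49 ± 0.46 (edgeR adjusted p = 0.00772 and 0.0259). Vegfa had 204, 212, 163 and 164 CPM in hr and 74.4 and 74.8 CPM in EF, apart in every library (1.32 ± 0.30, edgeR adjusted p = 0.0445).

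Pdk1, the kinase that shuts pyruvate out of mitochondrial oxidation (ENSMUSG00000006494, chromosome 2, 71873224 to 71903858), had 286, 288, 197 and 201 CPM in hr and 84.7 and 85.0 CPM in EF, and rose by 1.52 ± 0.23 (edgeR adjusted p = 0.0158). The 2 other flux regulators did not pass, with differences of -0.92 ± 0.52 for Pfkfb3 and -0.94 ± 0.29 for Pfkfb4 (edgeR adjusted p = 0.312 and 0.0927). Adm differed by 0.20 ± 0.14 and did not pass. Omitting 1 hr library left 20 or 21 members higher, and Gpi1, Pkm and Vegfa were lost in each of the 4 such omissions. Eno1 was lost without hr 1-2, 2-1 or 2-2, Egln3 without hr 2-1 or 2-2, P4ha1 without hr 1-1 or 1-2, Ankrd37 without hr 1-2 or 2-1, and Gapdh without hr 1-1. Bnip3 and Vegfa were lost without a filter, and Egln3 by limma-voom. Proliferation sums were 1024, 1008, 1535 and 1561 CPM in hr and 1824 and 1827 CPM in EF, and blood cell markers summed to 8.46 to 10.01 CPM in hr and 9.65 to 9.77 CPM in EF; the part of proliferation in these results was not tested.

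**Figure D3:**
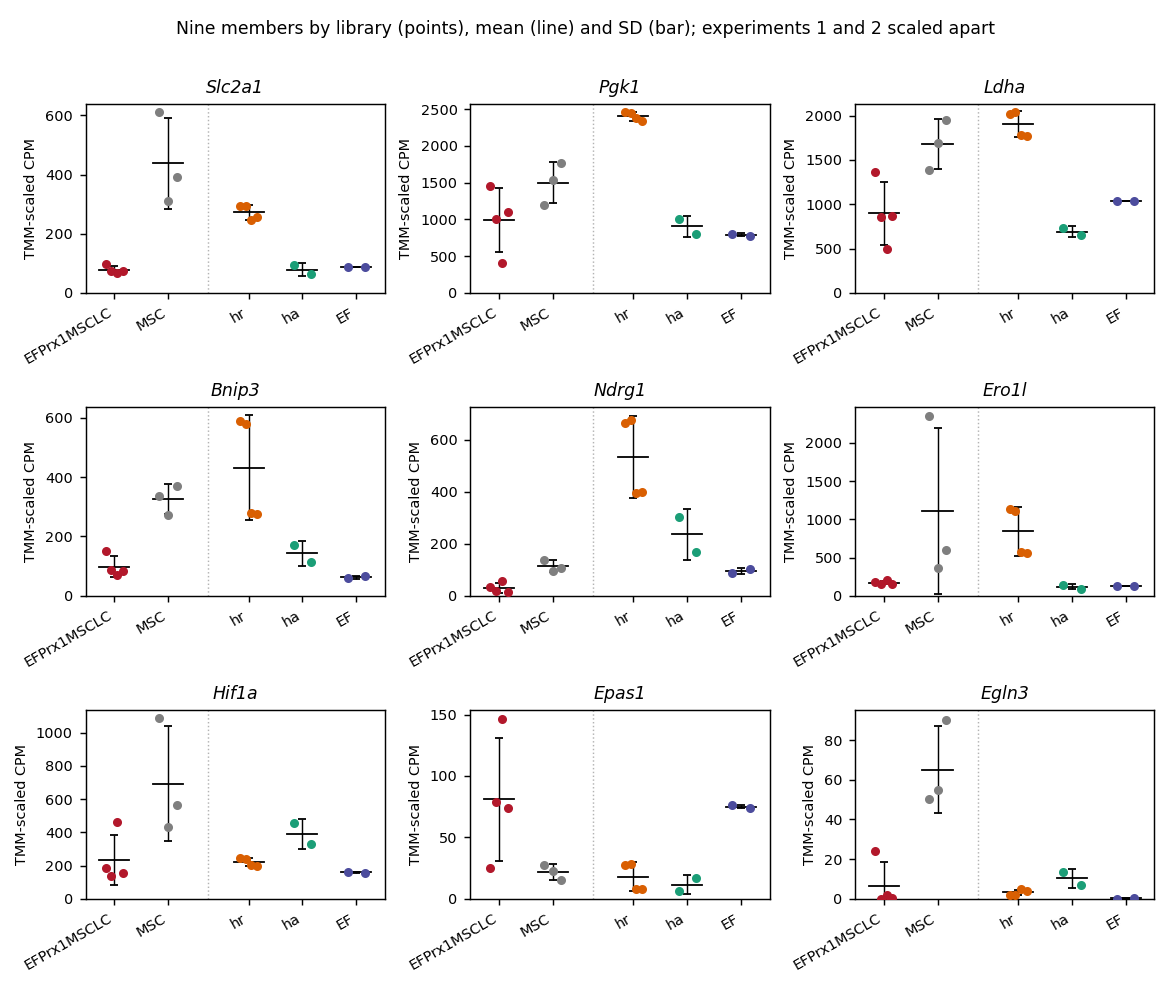
Level of 9 members in CPM (vertical axes, from 0) by group (horizontal axis), with 1 point per library, a line at the mean and a bar for the SD; the dotted line separates experiments 1 and 2, which were scaled apart. For Slc2a1, Pgk1, Ldha, Bnip3, Ndrg1 and Ero1l all hr points lie above ha and EF, and for Hif1a and Egln3 the ha points lie above hr and EF.

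The hr libraries were not uniform. Of the 36 tested members 32 were higher in hr 1 than in hr 2 and 4 higher in hr 2, and 33 were above the EF mean in both pairs. Hr 1 exceeded hr 2 by over 1.5 times in 13 members, and hr 2 exceeded hr 1 by as much in 2, Hk2 and Egln3. These are differences between pairs whose libraries lie close to counting noise, and were not tested. The same counts were not made over all genes, so they do not set the members apart from other genes. Among the 16 enzymes the ratio of hr 1 to hr 2 ran from 0.444 for Hk2 to 3.51 for Aldoc, which had 8 to 31 counts. Pgk1 stood at 2455 CPM in hr 1 and 2357 CPM in hr 2, a ratio of 1.04, Ldha at a ratio of 1.14 and Gpi1 at 1.67. Among the 19 tested members outside glycolysis the ratio ran from 0.471 for Egln3 to 3.65 for Epas1, which had 27.8 and 28.3 CPM in the hr 1 libraries and 7.71 and 7.64 CPM in the hr 2 libraries. Adm, P4ha2 and Kdm3a lay near 1, at 1.03, 1.05 and 1.14, and Bnip3 stood at 584 CPM in hr 1 and 278 CPM in hr 2, a ratio of 2.10. With only hr 1 set against EF, 29 members were higher and 0 lower, and with only hr 2, 25 were higher and 3 lower (Epas1, Pfkfb3 and Pfkfb4), settings chosen after the pairs had been seen. At an unadjusted edgeR p under 0.05, 31 of 36 members were higher with hr 1 and 2 lower. All genes tested then gave 2339 higher and 2371 lower. With hr 2, 29 members were higher and 3 lower, beside 2495 and 2115 of all genes tested.

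The comparison of ha with EF used the same 2 EF libraries, so its values are not independent of those above. Members outside glycolysis rose more often than they fell in ha. The glycolytic genes were called higher and lower at shares near those of all genes tested. Of the 36 members tested 14 rose and 5 fell, where 23% of all genes tested were called higher and 19.6% lower. Glycolytic genes had 4 higher and 3 lower of 17, with a median log2 fold change of 0.19, and other members 10 higher and 2 lower of 19, with a median of 0.97, beside 0.05 for all genes. Without EF 1 or without EF 2, 6 members were higher and 1 lower; without ha 1 the counts were 10 and 5, and without ha 2 18 and 3, where 1 of the 18 was a member that is not tested when both ha libraries are in. With the close pairs summed, 1 was higher (Egln3, under 10 counts in each EF library) and 1 lower (Pfkfb4).

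Among the enzymes Pfkl, Pfkm, Eno2 and Aldoc rose. Pfkl had 417 and 336 CPM in ha libraries 1 and 2 and 224 and 229 CPM in EF, and rose by 0.73 ± 0.16 (edgeR adjusted p = 0.00839). Pfkm had 136 and 119 CPM in ha and 68.7 and 67.5 CPM in EF, and rose by 0.90 ± 0.27 (edgeR adjusted p = 0.0312). Both ha libraries were above both EF libraries in these genes. Eno2 rose by 1.23 ± 0.28 (edgeR adjusted p = 0.0111), and Aldoc had 107 and 32 counts in ha and 5 and 5 in EF (edgeR adjusted p = 0.0243). Aldoc's EF counts were under 10 in each library, and its ratio on summed counts was 10.8, with a 95% exact binomial interval of 5.69 to 23.0.

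Ldha, Pfkp and Pgam1 fell. Ldha had 737 and 649 CPM in ha and 1037 and 1042 CPM in EF, and fell by 0.59 ± 0.14 (edgeR adjusted p = 0.0121). Pfkp had 33.1 and 35.9 CPM in ha and 48.5 and 48.1 CPM in EF, and fell by 0.48 ± 0.14 (edgeR adjusted p = 0.0293). Pgam1 fell by 0.39 ± 0.14 (edgeR adjusted p = 0.0484), a call at the threshold. It was lost with DESeq2 size factors, without a filter, with a filter of 5 CPM and with only the groups compared. The other enzymes did not pass, among them Pgk1 with 1009 and 799 CPM in ha and 806 and 777 CPM in EF (0.19 ± 0.14, edgeR adjusted p = 0.315), and neither did Slc2a1, with 94.9 and 63.1 CPM in ha and 87.6 and 87.0 CPM in EF (-0.14 ± 0.20, edgeR adjusted p = 0.583). The 2 ha libraries lay on either side of EF for Slc2a1; without ha 1 it was called lower (-0.48, edgeR adjusted p = 0.0471). Left-out libraries moved other enzymes past the threshold too: Eno1 without ha 1 (-0.48, edgeR adjusted p = 0.0279), and Tpi1 and Pgk1 without ha 2 (0.42 and 0.35, edgeR adjusted p = 0.0141 and 0.0323).

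Hif1a rose in ha. It had 454 and 328 CPM in ha and 159 and 158 CPM in EF, a difference of 1.30 ± 0.19 (edgeR adjusted p = 0.00166). Epas1 fell, with 6.15 and 17.0 CPM in ha and 76.1 and 74.0 CPM in EF, a difference of -2.68 ± 0.77 (edgeR adjusted p = 0.0259). Both ha libraries lay beyond the EF range, above it for Hif1a and below it for Epas1. Egln3 (ENSMUSG00000035105, chromosome 12, 54178981 to 54203860) had 187 and 120 counts in ha and 2 and 5 in EF (edgeR adjusted p = 0.00143). The ratio on summed counts was 34.0, with a 95% exact binomial interval of 16.3 to 85.3. EF lay under 10 counts in each library, so Egln3 was tested because of the other groups. Egln1 did not pass (0.51 ± 0.30, edgeR adjusted p = 0.207).

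Pfkfb4 (ENSMUSG00000025648, chromosome 9, 108991778 to 109032228) had the largest fall of the members, with 7.46 and 4.07 CPM in ha and 58.3 and 59.2 CPM in EF (-3.36 ± 0.39, edgeR adjusted p = 7.46e-04). Pdk1 had 253 and 175 CPM in ha and 84.7 and 85.0 CPM in EF, and rose by 1.34 ± 0.26 (edgeR adjusted p = 0.00520). The flux regulators moved apart, and Pfkfb3 did not pass (-0.11 ± 0.61). P4ha2 had 138 and 117 CPM in ha and 61.9 and 63.3 CPM in EF, and Kdm3a 96.8 and 92.2 CPM in ha and 48.9 and 47.6 CPM in EF. They rose by 1.02 ± 0.11 and 0.97 ± 0.12 (edgeR adjusted p = 6.27e-04 and 8.57e-04). P4ha1 rose by 1.13 ± 0.24, Mxi1 by 1.03 ± 0.20, Bnip3l by 0.91 ± 0.19, Ndrg1 by 1.29 ± 0.38 and Adm, a vasodilator peptide gene, by 0.69 ± 0.16 (edgeR adjusted p = 0.00786, 0.00593, 0.00711, 0.0270 and 0.0104). Bnip3 had 172 and 114 CPM in ha and 58.7 and 66.0 CPM in EF, apart but not past the threshold (1.19 ± 0.43, edgeR adjusted p = 0.0580; DESeq2 and limma-voom called it). Ddit4, Vegfa, Ero1l and Ankrd37 did not pass; without ha 2, Ddit4 and Vegfa did (1.57 and 0.79, edgeR adjusted p = 0.0447 and 0.0203).

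Of the 19 calls, 7 were kept in each of the 4 omissions of 1 library: Hif1a, Egln3, Pdk1, Pfkfb4, P4ha2, Kdm3a and Mxi1. The other 12, all calls of glycolytic enzymes among them, were lost without EF 1 and without EF 2, with adjusted p up to 0.183 in edgeR. Without ha 1, Pfkm, Pfkp, Aldoc, Eno2, Epas1 and Ndrg1 were lost, and without ha 2, Pfkm, Pfkp and Pgam1. Epas1 and Ndrg1 were lost without a filter, Adm with only the groups compared, and Aldoc by limma-voom. Ha had 528 and 944 CPM of proliferation markers, against 1824 and 1827 CPM in EF, and all 6 markers fell. Mesenchymal markers summed to 17427 and 16789 CPM in ha and 8740 and 8844 CPM in EF. The part of either difference in these results was not tested.

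Hr was set against ha last, which asks where these 2 genotypes differ. Its libraries and fit are those of the 2 comparisons above, so its values are not independent of them. Most glycolytic genes were higher in hr, while Hif1a, Egln3 and Adm were lower. Of 36 members 23 rose and 3 fell, where 17.9% of all genes tested were called higher and 21.5% lower. Glycolytic genes had 13 higher and 0 lower of 17, with a median log2 fold change of 0.97, and other members 10 higher and 3 lower of 19, with a median of 0.61, beside -0.00 for all genes. With all libraries in, no glycolytic gene was lower by edgeR, DESeq2 or limma-voom, and 1 of them, Aldoc, had an unadjusted p under 0.05 in that direction by edgeR. With hr 2 alone set against ha, a setting chosen after the pairs had been seen, edgeR called Pfkm and Aldoc lower. Without ha 2, 14 members were higher and 3 lower, and with the close pairs summed 7 and 0.

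Among the glycolytic genes called, Pfkp (ENSMUSG00000021196, chromosome 13, 6579768 to 6648777) had 130.1, 134, 104 and 113 CPM in hr libraries 1-1, 1-2, 2-1 and 2-2 and 33.1 and 35.9 CPM in ha libraries 1 and 2, and rose by 1.80 ± 0.13 (edgeR adjusted p = 1.17e-04). Ldha had 2019, 2045, 1780.3 and 1775 CPM in hr and 737 and 649 CPM in ha, and rose by 1.46 ± 0.13 (edgeR adjusted p = 2.23e-04). Pgam1 and Pgk1 rose by 1.49 ± 0.13 and 1.41 ± 0.13 (edgeR adjusted p = 1.85e-04 and 2.98e-04), with ha at 569.7 and 476 CPM and 1009 and 799 CPM. Slc2a1 had 294, 294, 245 and 255 CPM in hr and 94.9 and 63.1 CPM in ha, and rose by 1.78 ± 0.18 (edgeR adjusted p = 4.41e-04). The groups did not overlap in any of these genes. Eno1 and Tpi1 rose by 1.08 ± 0.15 and 0.68 ± 0.11 (edgeR adjusted p = 0.00153 and 0.00293), and Gpi1, Pfkl, Aldoa, Gapdh, Eno2 and Pkm by 0.50 (Pfkl) to 1.37 (Gpi1). Hk1, Hk2, Pfkm and Aldoc did not pass.

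Outside glycolysis, Ero1l had 1130.2, 1108, 574 and 564 CPM in hr and 148 and 94.7 CPM in ha, and rose by 2.80 ± 0.40 (edgeR adjusted p = 0.00170). Pfkfb4 had 37.4, 39.0, 21.5 and 24.2 CPM in hr and 7.46 and 4.07 CPM in ha, and rose by 2.41 ± 0.35 (edgeR adjusted p = 0.00187). P4ha2 rose by 0.76 ± 0.10 (edgeR adjusted p = 0.00119). Bnip3, Bnip3l, Ndrg1, Vegfa, Egln1, Ankrd37 and Mxi1 rose by 0.49 (Bnip3l) to 1.59 (Bnip3), with adjusted p up to 0.0493 in edgeR. Hif1a had 249, 239, 205 and 197 CPM in hr and 454 and 328 CPM in ha, and fell by 0.81 ± 0.15 (edgeR adjusted p = 0.00541). Egln3 had 2.19, 1.96, 4.99 and 3.82 CPM in hr and 13.7 and 7.07 CPM in ha, and fell by 1.67 ± 0.44 (edgeR adjusted p = 0.0202). All hr libraries lay below both ha libraries in these 2 genes. Adm fell by 0.49 ± 0.13 (edgeR adjusted p = 0.0226). Pdk1, Ddit4, P4ha1, Kdm3a, Epas1 and Pfkfb3 did not pass, and the differences of Pdk1, P4ha1 and Kdm3a were 0.18 ± 0.22, -0.08 ± 0.21 and 0.13 ± 0.10.

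Of the 26 calls 14 were kept in each of the 6 omissions of 1 library, 10 of them glycolytic genes. Without ha 2, Gpi1, Pfkl, Eno2, Egln1, Bnip3, Bnip3l, Ndrg1, Vegfa, Adm and Mxi1 were lost, and Aldoc was called lower (-2.44, edgeR adjusted p = 0.0394). Without ha 1, Egln3, Bnip3l and Ankrd37 were lost; without hr 1-1 Pfkl, Bnip3l and Vegfa, and without hr 1-2 Bnip3l and Vegfa. The highest adjusted p among these was 0.217 in edgeR. Bnip3l was lost with DESeq2 size factors and with a filter of 5 CPM, Bnip3, Ndrg1 and Vegfa without a filter, and Bnip3l, Pfkl and Vegfa with only the groups compared. Of the 6 proliferation markers 3 rose in hr, and mesenchymal markers summed to 7830.5 to 8374 CPM in hr and 16789 to 17427 CPM in ha; the part of these differences was not tested.

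**Figure D4:**
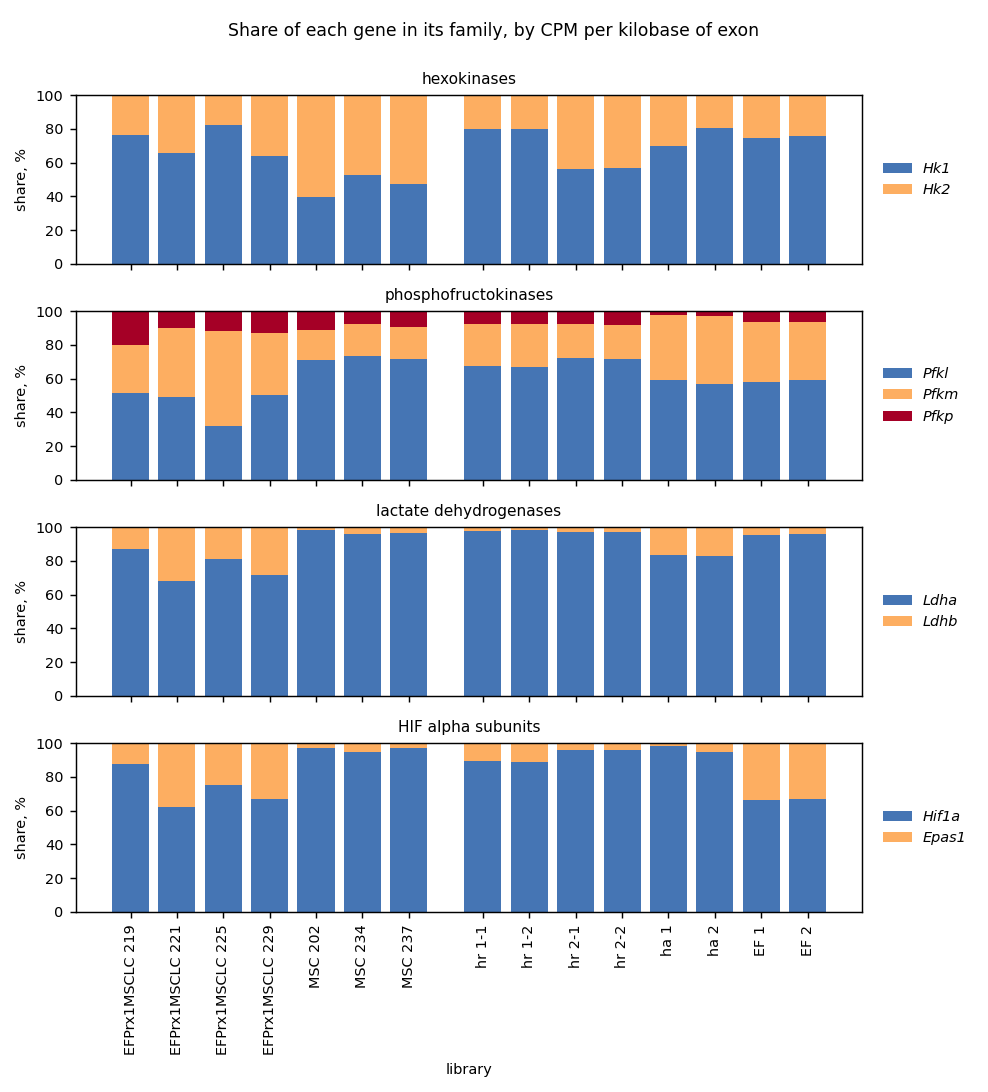
Share of each gene in the summed level of its family (vertical axes, percent of CPM per kilobase of merged exon) in every library (horizontal axis), for hexokinases, phosphofructokinases, lactate dehydrogenases and HIF alpha subunits. Ldhb takes 12.9% to 32.0% in EFPrx1MSCLC, 16.4% to 17.1% in ha and no more than 4.66% in the other groups.

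Levels per length compare the RNA of the forms of an enzyme, and are descriptions with no test. They are CPM per kilobase of merged exon, and shares are of the genes named. The order of forms depends on that length, which is 13401 bases for Pfkp and 3340 for Pfkm. By CPM, Pfkp stood above Pfkm in hr 1 (132 and 111) and hr 2 (108 and 68.4). The shares therefore serve to compare groups rather than forms. Hk2 made up 27.9% ± 8.65 of Hk1 and Hk2 together in EFPrx1MSCLC (SD, n = 4) and 53.3% ± 6.59 in MSC (n = 3). The share ran from 20.2% to 43.7% in hr, 19.6% to 30.1% in ha and 24.3% to 25.2% in EF. Of the 3 phosphofructokinase genes, Pfkm held 40.5% ± 11.4 in EFPrx1MSCLC and 18.4% ± 0.405 in MSC, with 22.9% ± 3.09 in hr, 39.3% ± 1.17 in ha and 35.2% ± 0.551 in EF. Pfkp held 7.76% ± 0.320 in hr (n = 4), 2.68% ± 0.483 in ha and 6.23% ± 0.0672 in EF (n = 2 each). The mean Pfkm share was smaller in MSC and hr than in EFPrx1MSCLC, ha and EF.

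Ldhb, whose subunit favours turning lactate back to pyruvate, was not a member but shares a reaction with Ldha. It held 23.0% ± 8.78 of Ldha and Ldhb in EFPrx1MSCLC and 3.27% ± 1.14 in MSC, and 2.44% ± 0.340 in hr, 16.4% and 17.1% in the ha libraries and 4.35% ± 0.434 in EF. Its level rose against MSC and against EF, by 2.18 ± 0.55 in EFPrx1MSCLC and 1.55 ± 0.14 in ha (edgeR adjusted p = 0.0313 and 2.93e-04), and hr differed from ha by -1.55 ± 0.11 (edgeR adjusted p = 1.02e-04). Of the HIF alpha genes Epas1 held 12.6% to 37.7% in EFPrx1MSCLC and 2.64% to 5.28% in MSC. It held 7.34% ± 4.02 in hr, 3.30% ± 2.67 in ha and 33.3% ± 0.358 in EF, so Hif1a prevailed in every library, and by least in EFPrx1MSCLC and EF.

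**Figure D5:**
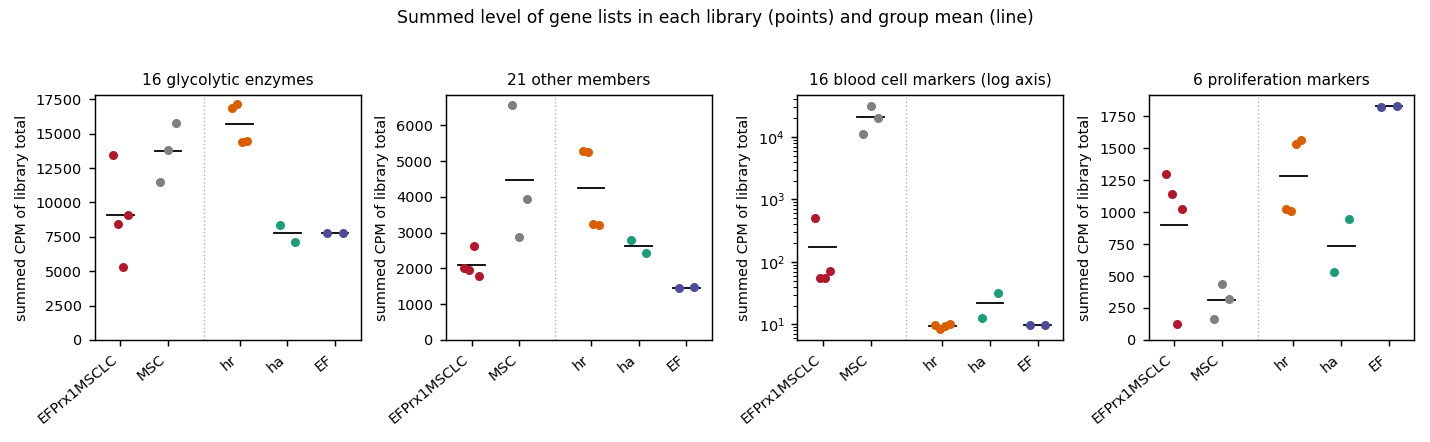
Summed level of 16 glycolytic enzymes, the 21 members outside glycolysis, 16 blood cell markers (log axis) and 6 proliferation markers, in CPM of the library total, by group, with 1 point per library and a line at the mean. Blood cell markers reach 11115 CPM or more in MSC and at most 510 CPM elsewhere, and the enzyme sum is 14385 CPM or more in hr and at most 8361 CPM in ha and EF.

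Summed, the 16 enzymes took 13473, 8464, 5318 and 9098 CPM of the library total in EFPrx1MSCLC 219, 221, 225 and 229, against 11523, 13843 and 15796 CPM in MSC. EFPrx1MSCLC 219 reached into the MSC range. In experiment 2 they took 16893, 17199, 14385 and 14492 CPM in hr, 8361 and 7153 CPM in ha, and 7787 and 7778 CPM in EF. Hr stood above both other groups, and the 2 ha libraries lay on either side of EF. The 21 members outside glycolysis took 1790.5 to 2632 CPM in EFPrx1MSCLC and 2871 to 6582 CPM in MSC. They took 5286, 5252, 3241 and 3227 CPM in hr, 2797 and 2434 CPM in ha, and 1451 and 1472 CPM in EF, so here the 3 groups of experiment 2 lay in separate ranges. Sums are led by their most abundant members and were not tested.

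Other genes of the 2 pathways were counted from a list of 60 that holds, among others, the partner of HIF, remaining isozymes, glycogen enzymes and further HIF targets. In EFPrx1MSCLC against MSC 2 of 51 tested rose and 15 fell, where 7.7% of all genes tested were called higher and 12.1% lower. Omitting 1 library gave 0 to 5 higher, with 0 without EFPrx1MSCLC 221, EFPrx1MSCLC 229, MSC 234 or MSC 237, 4 without EFPrx1MSCLC 225 and 5 without MSC 202. It gave 8 to 17 lower, with 8 without MSC 237, 9 without EFPrx1MSCLC 229 or MSC 234 and 10 without EFPrx1MSCLC 221. Pygl, liver glycogen phosphorylase, had 0.769, 0.0959, 0.257 and 0.139 CPM in EFPrx1MSCLC and 126, 185 and 138 CPM in MSC (edgeR adjusted p = 8.10e-04), and was at 0 in all libraries of experiment 2. Pygl reached 10 counts in only 1 EFPrx1MSCLC library and Slc16a7 in none, so both passed the filter through the MSC libraries and had to differ to be tested. Slc16a7, a monocarboxylate transporter, Hilpda, a lipid droplet protein, Pck2, a mitochondrial enzyme of phosphoenolpyruvate synthesis, and Higd1a, a mitochondrial survival factor, fell by 5.37 ± 0.65, 2.81 ± 0.37, 1.44 ± 0.22 and 2.12 ± 0.33 (edgeR adjusted p = 0.00279, 0.00364, 0.00600 and 0.00639).

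Against EF, 11 of 46 tested rose in hr and 2 fell, where 3.88% and 3.07% of all genes tested did. Hilpda had 28.8, 28.5, 33.7 and 32.3 CPM in hr and 7.98 and 6.79 CPM in EF, and rose by 2.06 ± 0.20 (edgeR adjusted p = 0.00594). Plod2, a collagen lysyl hydroxylase, Pgm1, a phosphoglucomutase, Fam162a, a mitochondrial HIF target, and Ak4, a mitochondrial adenylate kinase, rose by 1.86 ± 0.19, 1.65 ± 0.20, 1.60 ± 0.20 and 1.66 ± 0.21 (edgeR adjusted p = 0.00638, 0.00881, 0.00920 and 0.00948). Omitting 1 hr library left 8 to 11 higher and 0 or 1 lower, and without EF 1 or without EF 2, 0 of the 46 passed.

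Ha against EF gave 18 higher and 6 lower of 46 tested, where 23% of all genes tested were called higher and 19.6% lower. Without EF 1 or without EF 2 the counts were 9 and 4, without ha 1 14 and 8, and without ha 2 18 and 6. Tfrc, the transferrin receptor, had 42.9 and 44.0 CPM in ha and 423 and 411 CPM in EF, and fell by 3.26 ± 0.13 (edgeR adjusted p = 1.53e-05). Rora, a nuclear receptor, and Arnt, the partner of the HIF alpha subunits, rose by 2.44 ± 0.38 and 0.80 ± 0.13, and Eno3, the muscle enolase, fell by 2.29 ± 0.37 (edgeR adjusted p = 0.00242, 0.00242 and 0.00264). In hr against ha 17 of 46 rose and 9 fell, where 17.9% of all genes tested were called higher and 21.5% lower. Tfrc rose by 2.67 ± 0.11, and Stc2, a secreted glycoprotein, Rora and Arnt fell by 2.00 ± 0.16, 2.35 ± 0.30 and 0.77 ± 0.11 (edgeR adjusted p = 1.44e-05, 1.53e-04, 0.00108 and 0.00144).

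The number 221 links EFPrx1MSCLC 221 of experiment 1 to all of experiment 2, but flowcell and experiment cannot be told apart, and the values of the 2 experiments, scaled apart, are set side by side with no test. Epas1 had 78.9 CPM in EFPrx1MSCLC 221 and 76.1 and 74.0 CPM in EF, Slc2a1 73.2 CPM and 87.6 and 87.0 CPM, Hif1a 137 CPM and 159 and 158 CPM, and Pgk1 1001 CPM and 806 and 777 CPM. Egln3 and Slc16a3 had 0 and 3 counts in EFPrx1MSCLC 221, and 2 and 5 and 0 and 0 counts in EF. Adm and Ldhb were further apart, Adm at 154 CPM in EFPrx1MSCLC 221 and 28.3 and 28.4 CPM in EF and Ldhb at 192 CPM and 24.0 and 20.8 CPM. Ndrg1 was apart too, lower in EFPrx1MSCLC 221 than in EF. Per kilobase of merged exon, Eno2 stood at 11.4 CPM in EFPrx1MSCLC 221 and 4.32 and 4.58 CPM in EF. Aldoc, low in counts, stood at 1.41 CPM and 0.136 and 0.122 CPM. These genes are examples and do not show how alike EFPrx1MSCLC 221 and EF were.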

How the data were processed

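The deposited table holds expected counts per gene for 15 mouse libraries. The authors made them with STAR and RSEM on GRCm38.p6, per the submitters' processing notes; for tool versions, annotation release and strandedness, nothing is given in the sources used here. Rounding to whole numbers altered 8.27% of these deposited expected counts and changed no library total by more than 0.000579%. Without strand, reads of overlapping antisense genes cannot be told apart, and genes with near-identical copies (Gapdh and other glycolytic enzymes have processed pseudogenes) are uncertain in level. Coordinates are GRCm38.

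Experiments 1 and 2 were fitted apart, and the 3 groups of experiment 2 together, with edgeR 4.0.16 in R 4.3.3: TMM scaling, a minimum count of 10 by filterByExpr, the robust quasi-likelihood test, two-sided, and Benjamini-Hochberg adjustment over all genes tested, with a threshold of 0.05. DESeq2 1.42.0 and limma-voom (limma 3.58.1) were alternatives, beside other size factors, no filter, a filter of 5 CPM, omission of each library, the replicate block, only the groups compared, and summed close pairs. The test was run on simulated data with 200 genes changed by 2 on the log2 scale. It recovered 60 of them among 14401 genes for EFPrx1MSCLC against MSC and 192 among 13618 for hr against EF. It recovered 191 among 13602 for ha against EF and 193 among 13618 for hr against ha. False calls numbered 4, 8, 10 and 6 in the same order. Each simulated library was drawn independently, so close pairs such as those of EF and hr were not modelled.

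The members and lists were chosen with earlier results of these data known. Named are 16 key members where they carry a comparison, in each comparison up to 10 called members whose groups do not overlap, by p-value, and up to 5 other pathway genes; further members named were picked to account for all. Floors and intervals cover counting error only, at a confidence level of 95% and with a floor of 3 counts.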

Additional observations from a re-analysis of the deposited data

Results flagged for a closer look

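In groups of 4 libraries, 8 of 76 member and group pairs had 1 library set apart from the other 3. The gap, as a share of the group's range, was then over Dixon's critical value. Chance gives about 1 in 20 where libraries are independent. That rate does not apply to hr, whose libraries form close pairs in which 1 library can seldom stand apart. Library EFPrx1MSCLC 219 was the highest in 3 of them. Gpi1 had 676 CPM there, against 290 to 336 CPM in the other EFPrx1MSCLC libraries (gap 0.88 of the range), Slc16a3 4.05 CPM against 0.144 to 0.321 CPM (0.955), and Egln3 24.2 CPM against 0 to 2.12 CPM (0.913). Library EFPrx1MSCLC 225 stood apart in 4. Hif1a had 461 CPM there, against 137 to 183 CPM in the others (0.859), and P4ha1 741 CPM against 330 to 394 CPM (0.843), both highest. Pdk1 had 41.2 CPM against 100.1 to 107 CPM (0.898), and Car12 0.0641 CPM against 0.417 to 0.480 CPM (0.849), both lowest. The same library held 8.43% mitochondrial counts and the lowest proliferation sum of its group, 124 CPM, and library 219 the highest blood cell marker sum of its group, 510 CPM; their part in these values was not tested. Adm in hr 1-1 had 34.1 CPM, against 32.0 to 32.1 CPM in the other hr libraries (0.941).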

How the results depend on the processing

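No member called by edgeR changed direction under any alternative run. Counts of members called moved by over 1.5 times as follows, and the cause was not tested. For EFPrx1MSCLC against MSC (1 higher, 15 lower), 2 were higher without a filter and by DESeq2; omitting 1 library gave 1 to 3 higher (2 without EFPrx1MSCLC 219, 3 without MSC 202) and 11 to 17 lower. For hr against EF (26 higher, 0 lower), summing the close pairs, which leaves fewer samples, gave 0 higher; 2 were lower by DESeq2, 1 by limma-voom and 3 with hr 2 alone; omissions gave 0 to 21 higher and 0 lower. For ha against EF (14 higher, 5 lower), 3 were lower without a filter, summing gave 1 higher and 1 lower, and omissions gave 6 to 18 higher and 1 to 5 lower. For hr against ha (23 higher, 3 lower), summing gave 7 higher and 0 lower, 5 were lower with hr 2 alone, and omissions gave 14 to 23 higher and 2 to 3 lower. Same-numbered libraries did not deviate together (correlations -0.021 to 0.020). The EF and hr pairs differ by little more than counting noise, so a shared step could hardly have shown there. With the number as a replicate block, 18 members were higher and 0 lower in hr against EF, 13 and 4 in ha against EF, and 22 and 3 in hr against ha. In experiment 1 no paired analysis was possible because the groups share no replicate number. With 1 ha or EF library left, that library is assumed to vary like the other groups. The settings with 1 hr pair alone were chosen after seeing the data. Car9, Aldoc, Egln3, Slc2a3, Car12 and Ankrd37 are limited by low counts in at least 1 group.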
